A study of Mus musculus with 11 samples.

Results

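The gelsolin family of actin-severing and actin-capping proteins was followed in mouse inguinal mammary glands whose adipocytes were targeted for loss of Tsc1. The 7 genes were Gsn, Scin, Vil1, Avil, Capg, Flii and Svil, taken by name from the 22196 genes to which the deposited transcripts could be assigned. Gsn brought the family into view because it was called between the genotypes in these same libraries, so its difference is described here and supports nothing. The other 6 genes were taken for their family membership. RNA was sequenced from 6 Knockout libraries (Tsc1-fl/fl; Adipoq-Cre-Tg/+) and 5 Wild-Type libraries (Tsc1-fl/fl; Adipoq-Cre-+/+). Both groups therefore carried the floxed Tsc1 alleles, were fed normal chow and bear the label PND16.5, which the collection protocol words as 16 days after delivery. Cre was driven by the adiponectin promoter, while the RNA came from the whole gland with its epithelium, stroma and vessels. The labels do not say whether the libraries came from separate animals or litters, so p-values measure the spread between libraries.

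Gelsolin-family proteins are built from repeated gelsolin domains that bind actin. Gelsolin itself is activated by calcium, severs actin filaments, caps their fast-growing ends and is released from them by phosphoinositides. A single gene makes a cytoplasmic form and a secreted form with a signal peptide. Secreted gelsolin circulates in plasma, where it takes part in clearing actin released from damaged cells. Fat tissue remodels cortical actin as adipocytes fill and empty, and milk-producing and contractile epithelium of the mammary gland also rely on actin.

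Depth ranged from 25817975 to 37894237 estimated reads per library. Markers of the labelled tissue were present in every library, with summed CPM (estimated reads scaled to effective library size) of 521 to 1034 for luminal epithelium, 288 to 508 for myoepithelium and smooth muscle and 719 to 1745 for adipocytes. Knockout 1 stood apart in skeletal muscle markers, at 1936 CPM against 1.66 to 154 CPM in the other 10 libraries. B cell markers ranged from 0.808 to 13.8 CPM in the Knockout libraries and from 1.93 to 69.8 CPM in the Wild-Type libraries.

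Gsn (ENSMUSG00000026879) lies on the forward strand at chr2:35256380-35307892 of GRCm38. Of its 6 listed transcripts, 3 received reads, and they differ at the start of the protein. Gsn-201 is the secreted form. Its translation starts in an exon of its own, whose coding part at chr2:35282464-35282601 is 138 bases long and holds the signal peptide. Gsn-205 is the cytoplasmic form. Its transcription starts 26000 bases further upstream, but its translation starts inside the next shared exon, at position 35283914. The coding starts below, 5′ to 3′ from GENCODE M21, are shown because they are what separates the forms, with capitals marking bases in a first coding exon that the transcript does not share.
Gsn-201: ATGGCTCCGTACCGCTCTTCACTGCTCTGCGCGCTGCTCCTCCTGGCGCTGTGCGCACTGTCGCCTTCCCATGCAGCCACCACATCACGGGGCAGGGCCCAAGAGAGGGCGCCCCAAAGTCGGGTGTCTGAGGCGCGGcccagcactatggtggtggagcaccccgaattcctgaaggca
Gsn-205: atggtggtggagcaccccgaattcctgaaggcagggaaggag
Gsn-207: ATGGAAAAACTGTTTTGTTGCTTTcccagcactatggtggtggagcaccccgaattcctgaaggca
Gsn-205 has no capitals, since its coding sequence is contained whole in Gsn-201, which carries 147 more bases at its 5′ end. The lengths listed for both transcripts are those of coding sequence. The split between the forms is thus the quantifier's estimate, resting on reads in those 147 bases and on how reads spread over the shared remainder. Gsn-207, with 24 coding bases of its own, had at most 6.58 estimated reads in a library and was counted with the cytoplasmic form.

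**Figure D1:**
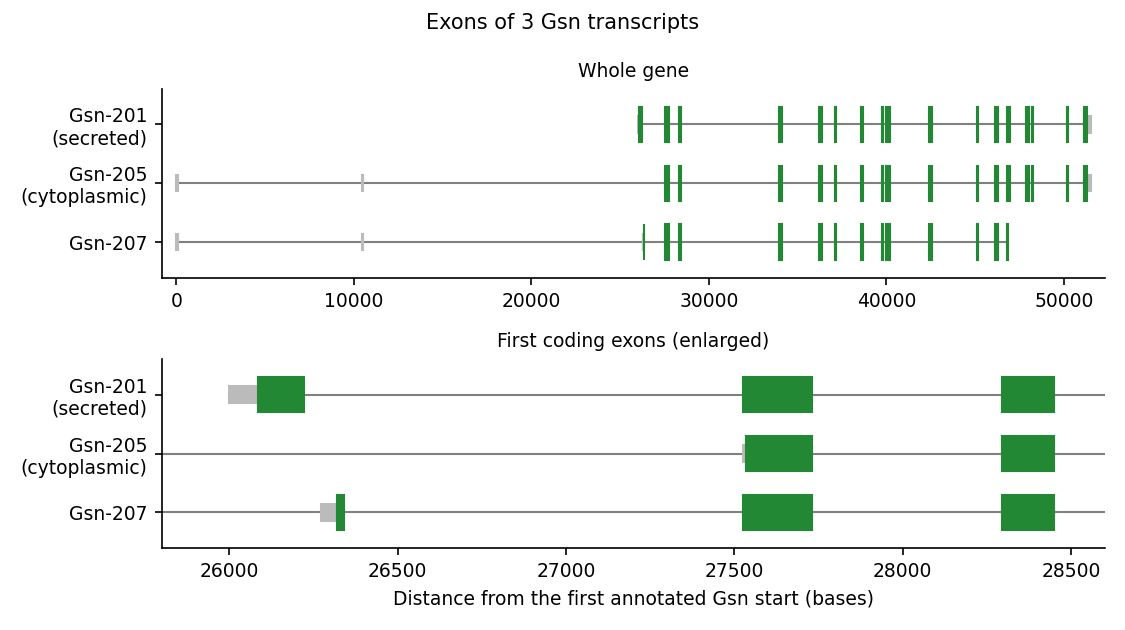
Exons of the 3 Gsn transcripts with reads, plotted as distance in bases from the first annotated start, with thick boxes for coding and thin boxes for noncoding exon parts. Gsn-205 and Gsn-207 begin near 0 and Gsn-201 begins 26000 bases downstream, after which the coding exons are shared.

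The forms are also transcribed from separate start sites. The 250 bases before the RefSeq start of each (RefSeq, GRCm38.p6, forward strand) are shown because the 2 forms were measured separately below, with capitals marking matches on either strand to the TATA box (TATAAA), the CCAAT box, the GC box (GGGCGG) or the E-box (CACGTG).
Upstream start, chr2:35256109-35256358: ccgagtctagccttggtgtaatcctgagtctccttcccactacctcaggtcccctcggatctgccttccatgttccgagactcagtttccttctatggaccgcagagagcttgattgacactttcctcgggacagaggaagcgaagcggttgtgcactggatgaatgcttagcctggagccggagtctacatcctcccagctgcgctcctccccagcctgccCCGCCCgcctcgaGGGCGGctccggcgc
Secreted start, chr2:35282130-35282379: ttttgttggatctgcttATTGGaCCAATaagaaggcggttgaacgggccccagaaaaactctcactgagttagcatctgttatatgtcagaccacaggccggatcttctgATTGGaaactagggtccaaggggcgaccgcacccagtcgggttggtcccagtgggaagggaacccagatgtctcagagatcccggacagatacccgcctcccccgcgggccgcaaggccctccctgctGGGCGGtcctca
The window before the secreted start held 3 CCAAT matches and 1 GGGCGG match, and the upstream window held 0 and 2. Neither window held TATAAA or CACGTG. Among 32851 mouse RefSeq windows of this length, 33.8% held CCAAT, 32.7% GGGCGG, 12.4% TATAAA and 6.02% CACGTG. No match overlapped another, and a match describes letters only. Another RefSeq start of Gsn, between these, is not shown.

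Gsn was the most abundant family member and the only one called between the genotypes. In the Wild-Type libraries 1 to 5, Gsn stood at 272, 283, 200.8, 185 and 248 CPM. The 6 Knockout libraries ranged from 362 CPM (Knockout 2) through a median of 461.6 to 523 CPM (Knockout 4). The lowest Knockout library lay above the highest Wild-Type library. Means were 458 ± 60.1 CPM (SD, n = 6) and 238 ± 43.3 CPM (SD, n = 5). The fitted log2 difference was 0.94 ± 0.13 (SE), a fold of 1.92, with an adjusted p of 0.0150 by edgeR's quasi-likelihood test with Benjamini-Hochberg adjustment over 12716 genes. By the same test 0.0550% of all tested genes were called in either direction and 0.0472% with Knockout higher, and 0.786% had ranges that did not overlap with Knockout higher. Since the gene was chosen on this contrast, nothing is read from those shares. The adjusted p moved past 0.05 without Knockout 1 (0.0502), Knockout 3 (0.0585), Knockout 6 (0.0513) or Wild-Type 3 (0.0720), while the log2 difference stayed between 0.87 and 1.01 over all 11 omissions.

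Most of the difference was assigned to the secreted form. Gsn-201 was at 203, 206, 162, 153 and 196 CPM in the Wild-Type libraries 1 to 5. In the Knockout libraries it ranged from 321 CPM (Knockout 2) through a median of 404 to 459 CPM (Knockout 1), again with no overlap. Its log2 difference was 1.11 ± 0.11 (SE), a fold of 2.16, with an adjusted p of 0.0123 by edgeR over 18620 transcripts. With all libraries it was the only transcript called by edgeR, which is 0.00537% of those tested. Gsn-201 holds most reads of the gene chosen on this contrast, so nothing is read from its call or that share. DESeq2 called 156 transcripts (0.702% of those it tested), and edgeR called 0 to 7 with 1 library left out (7 without Knockout 2). The call was lost without Knockout 3 (adjusted p = 0.0578), Knockout 4 (0.0551) or Wild-Type 3 (0.0734), by the same edgeR test.

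The cytoplasmic form overlapped between the genotypes. Gsn-205 was at 68.1, 77.8, 38.4, 32.0 and 52.3 CPM in the Wild-Type libraries 1 to 5. The Knockout libraries ranged from 31.2 CPM (Knockout 5) through a median of 60.8 to 106 CPM (Knockout 4). The lowest and the highest values of the form over all libraries were thus both in Knockout libraries. Its log2 difference was 0.20 ± 0.32 (SE), with an edgeR adjusted p of 0.919. Of the mean difference of 219.7 CPM in Gsn, 212 CPM (96.5%) was assigned to the secreted form and 7.64 CPM to the cytoplasmic form. The cytoplasmic part turned to -1.26 CPM, and the Gsn-205 log2 difference to -0.027, without Knockout 4.

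Expressed as a share of Gsn estimated reads, the secreted form made up 74.9%, 72.5%, 80.9%, 82.7% and 78.9% in the Wild-Type libraries 1 to 5. The Knockout libraries ranged from 79.7% (Knockout 4) through a median of 87.2% to 92.7% (Knockout 5). The ranges overlapped, with 5 of 6 Knockout libraries above every Wild-Type library. The means of 86.8% ± 4.57 (SD, n = 6) and 78.0% ± 4.21 (SD, n = 5) differed by 8.85 percentage points. The share comes from the same reads as the Gsn level that chose the gene, most of which belong to the secreted form, so it is given as a description with no test. Per length, the secreted form was at 70.1 ± 15.5 TPM (transcript abundance scaled for length and depth) in Knockout and 27.4 ± 3.51 TPM in Wild-Type, and the cytoplasmic form at 11.5 ± 4.24 and 8.55 ± 2.77 TPM.

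**Figure D2:**
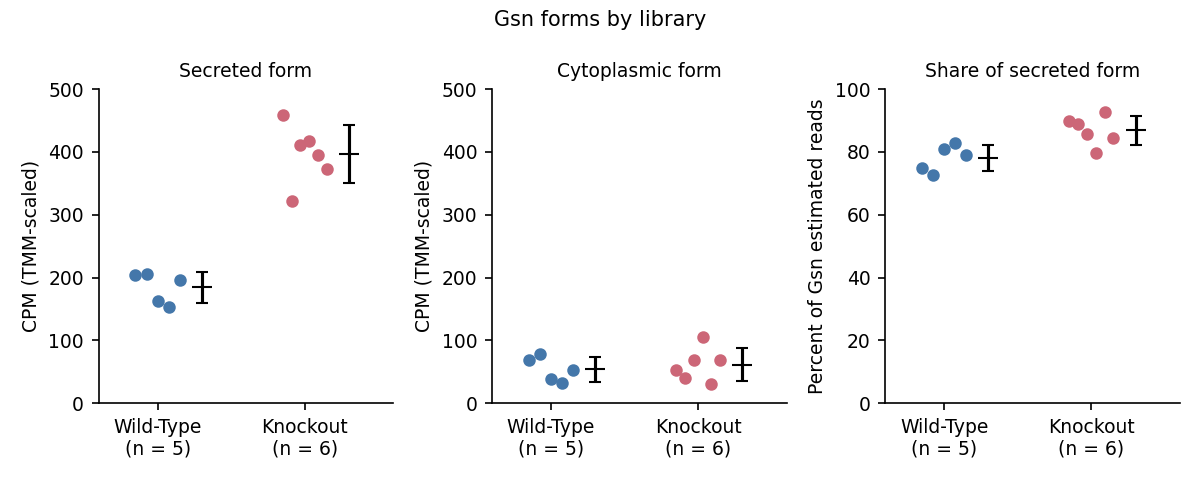
Secreted and cytoplasmic Gsn in CPM and the secreted share of Gsn reads in percent, with 1 point per library, by genotype, and bars for mean ± SD (n = 6 Knockout, n = 5 Wild-Type). The secreted form does not overlap between genotypes (321 to 459 against 153 to 206 CPM), while the cytoplasmic form does.

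Adipocyte markers were also at higher summed levels in the Knockout libraries. The summed CPM of 10 adipocyte markers was 1052, 996, 719, 952 and 877 in the Wild-Type libraries 1 to 5 and 1189 to 1745, with a median of 1313, in the Knockout libraries. Cfd (adipsin) made up 80.0% of the difference between the mean sums, and without it the sums overlapped, at 388 to 563 CPM in Knockout libraries and 358 to 453 CPM in Wild-Type ones. Of the 10 markers 9 had positive log2 differences, beside 48.3% of all tested genes, and Lep, encoding leptin, had a negative one. None was called by edgeR (0.0550% of all genes), and 6 of 10 had an unadjusted p under 0.05 (12.4% of all genes). Fibroblast markers, another stromal source, had overlapping sums, with a Knockout range of 279 to 669 CPM and a Wild-Type range of 215 to 468 CPM, and 7 of 8 had positive log2 differences. The median log2 difference was 0.35 for adipocyte markers (0.29 to 0.42 with 1 library left out) and 0.34 for fibroblast markers (0.16 without Knockout 2). It was positive as well for luminal epithelium (7 of 8 markers, median 0.31, and 0.50 without Wild-Type 4) and for myoepithelium and smooth muscle (7 of 7, median 0.23, and 0.14 without Wild-Type 2 or 0.38 without Wild-Type 3). All 4 tested B cell markers (median -2.77) and all 4 tested T cell markers (median -1.35, and -0.77 without Wild-Type 5) were negative. Each of these lists held 6 markers, of which 3 were tested without Knockout 1 and 6 without Wild-Type 1 or Wild-Type 3. The B cell sum was highest in Wild-Type 5 (69.8 CPM) and Wild-Type 2 (52.7 CPM), while Wild-Type 1 (1.93 CPM) lay below Knockout 1 (13.8 CPM). Skeletal muscle markers were positive in 7 of 7 (median 2.17), but in 2 of 7 (median -0.11) without Knockout 1. In whole tissue, more cells of a type and more RNA per cell cannot be told apart.

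Divided by the adipocyte sum, Gsn-201 was 0.263 to 0.319 in the Knockout libraries (mean 0.286 ± 0.0249) and 0.161 to 0.226 in the Wild-Type libraries (mean 0.202 ± 0.0266), without overlap. Against single markers the mean ratio was higher in Knockout for 9 of 10, and the ranges did not overlap for 6 of 10. They overlapped for Cfd (0.374 to 0.514 against 0.306 to 0.450), Plin1, Plin4 and Lipe. Against Adipoq, which encodes adiponectin, the ratio was 7.34 to 8.89 in Knockout and 4.75 to 5.50 in Wild-Type. Against the fibroblast sum the ratios overlapped, at 0.480 to 1.48 and 0.390 to 0.955. The ratios to the macrophage sum (2.80 to 5.56 in Knockout, 1.66 to 2.09 in Wild-Type) and to the endothelium sum (2.98 to 6.63 and 1.51 to 2.79) did not overlap either. Those to the luminal, myoepithelial, B cell, T cell and skeletal muscle sums overlapped. These ratios were chosen after the values were seen and carry no test. The part of RNA from any of these cell types in the Gsn difference was not tested.

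**Figure D3:**
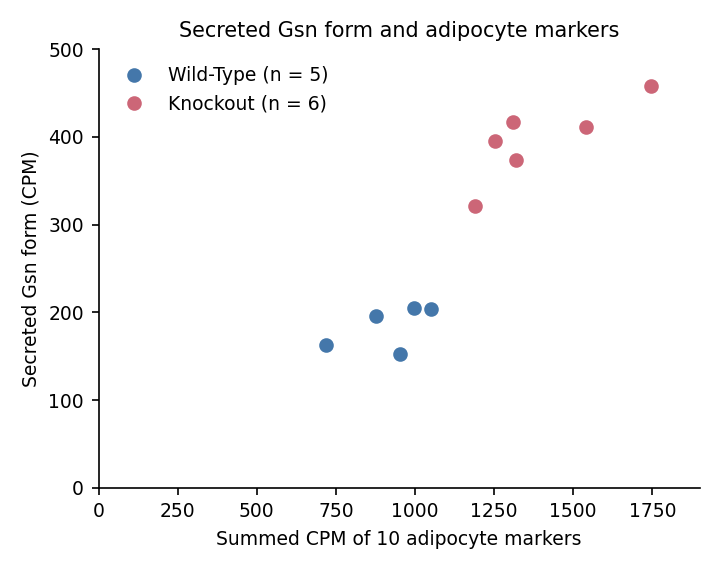
Gsn-201 in CPM plotted against the summed CPM of 10 adipocyte markers, with 1 point per library by genotype. Both quantities are higher in the Knockout libraries, and their ratio, not drawn, also does not overlap (0.263 to 0.319 against 0.161 to 0.226).

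Scin, which encodes the calcium-dependent severing protein adseverin, first known from secretory cells, varied widely within each genotype. Scin (ENSMUSG00000002565, chr12:40059769-40134228, reverse strand) was at 17.4, 3.76, 13.6, 8.56 and 8.95 CPM in the Wild-Type libraries 1 to 5. The Knockout libraries ranged from 10.9 through a median of 14.4 to 25.4 CPM. The groups overlapped, with the lowest value in Wild-Type 2 and the highest in Knockout 2. The log2 difference was 0.62 ± 0.35 (SE), with an edgeR adjusted p of 0.498, and was 0.40 without Wild-Type 2.

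Vil1 and Avil, a closely related pair, were the least abundant members. Vil1 encodes villin of the brush border of absorptive epithelium, and Avil encodes advillin, known from sensory neurons and tuft cells. Vil1 (ENSMUSG00000026175, chr1:74409376-74435559) was at 0.630, 1.00, 0.503, 0.304 and 0.597 CPM in the Wild-Type libraries 1 to 5 and 0.205 to 0.511 CPM, with a median of 0.350, in Knockout. These levels rest on 10 to 24 and 6 to 17 estimated reads per library. Its log2 difference was -0.82 ± 0.33 (SE), with an unadjusted p of 0.0294 and an adjusted p of 0.360 by edgeR. Of all tested genes, 12.4% had an unadjusted p under 0.05.

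Avil (ENSMUSG00000025432, chr10:127000709-127020994) was at 1.12, 0.292, 0.754, 0.668 and 1.05 CPM in the Wild-Type libraries 1 to 5 and 0.294 to 0.853 CPM, with a median of 0.597, in Knockout. Its lowest value was in Wild-Type 2 and its highest in Wild-Type 1, so the Knockout range lay within the Wild-Type range. The log2 difference was -0.45 ± 0.34 (SE), with an edgeR adjusted p of 0.616, and was -0.28 without Wild-Type 1. Avil overlaps Tsfm on the opposite strand and shares 5.81% of its 31-base words with Tsfm or Vil1, so a few of its reads could belong to those genes. The 4 tuft cell markers summed to at most 0.421 CPM in any library.

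Capg, a smaller relative that caps filaments without severing them and is abundant in macrophages, overlapped between genotypes. Capg (ENSMUSG00000056737, chr6:72544391-72562983) was at 20.2, 19.9, 14.2, 23.2 and 18.5 CPM in the Wild-Type libraries 1 to 5. The Knockout libraries ranged from 18.1 through a median of 23.4 to 25.9 CPM. The log2 difference was 0.23 ± 0.13 (SE), with an edgeR adjusted p of 0.486, and was 0.14 without Wild-Type 3. Macrophage markers had sums of 74.1 to 119 CPM over the Knockout libraries, beside 87.8 to 118 CPM over the Wild-Type ones, and 2 of 7 had positive log2 differences (1 to 5 with 1 library left out).

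Flii and Svil join gelsolin domains to other modules. Flii encodes flightless-1, which carries leucine-rich repeats and also acts as a transcriptional coactivator. Flii (ENSMUSG00000002812, chr11:60714123-60727263) was at 56.3, 64.6, 58.6, 62.7 and 57.2 CPM in the Wild-Type libraries 1 to 5 and 50.9 to 61.7 CPM, with a median of 59.2, in Knockout. It varied least of the 7 genes relative to its level, with SDs of 3.73 and 3.60 CPM around means of 58.2 and 59.9 CPM. The log2 difference was -0.04 ± 0.07 (SE), with an edgeR adjusted p of 0.838, and ranged from -0.06 (without Wild-Type 1) to -0.005 (without Knockout 3) with 1 library left out.

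Svil encodes supervillin, a membrane-associated protein that binds actin and myosin. Svil (ENSMUSG00000024236, chr18:4920540-5119299) was at 21.7, 18.9, 22.1, 25.0 and 20.6 CPM in the Wild-Type libraries 1 to 5 and 19.0 to 30.8 CPM, with a median of 21.8, in Knockout. The log2 difference was 0.12 ± 0.13 (SE), with an edgeR adjusted p of 0.752, and ranged from 0.03 (without Knockout 2) to 0.18 (without Wild-Type 4) with 1 library left out. Of its 3 tested transcripts, Svil-211 carried most of the signal, with a Knockout mean of 18.7 ± 3.43 CPM and a Wild-Type mean of 18.1 ± 1.86 CPM. Svil-215 was at 3.74 ± 1.43 and 2.61 ± 0.849 CPM, with its highest value, 6.24 CPM, in Knockout 1, the library with the most skeletal muscle marker RNA. Its log2 difference was 0.52 ± 0.30 (SE) with every library and 0.32 without Knockout 1 (edgeR adjusted p = 0.655 and 0.862). The part of muscle RNA in these values was not tested.

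Over the whole family, 4 log2 differences were positive and 3 negative, with a median of 0.12 beside -0.01 over all tested genes. That median was 0.03 without Knockout 2 and 0.06 without Knockout 1. Without Gsn, the gene chosen on this contrast, it was 0.04 over the other 6 genes (3 positive). Over those 6 genes it ranged from -0.004 (without Knockout 2) to 0.08 (without Knockout 3) with 1 library left out. All 7 genes passed the filter on low counts. Of 28 listed transcripts, 17 had reads and 10 were tested, and Gsn-201 was the only one of the 10 called by edgeR.

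**Figure D4:**
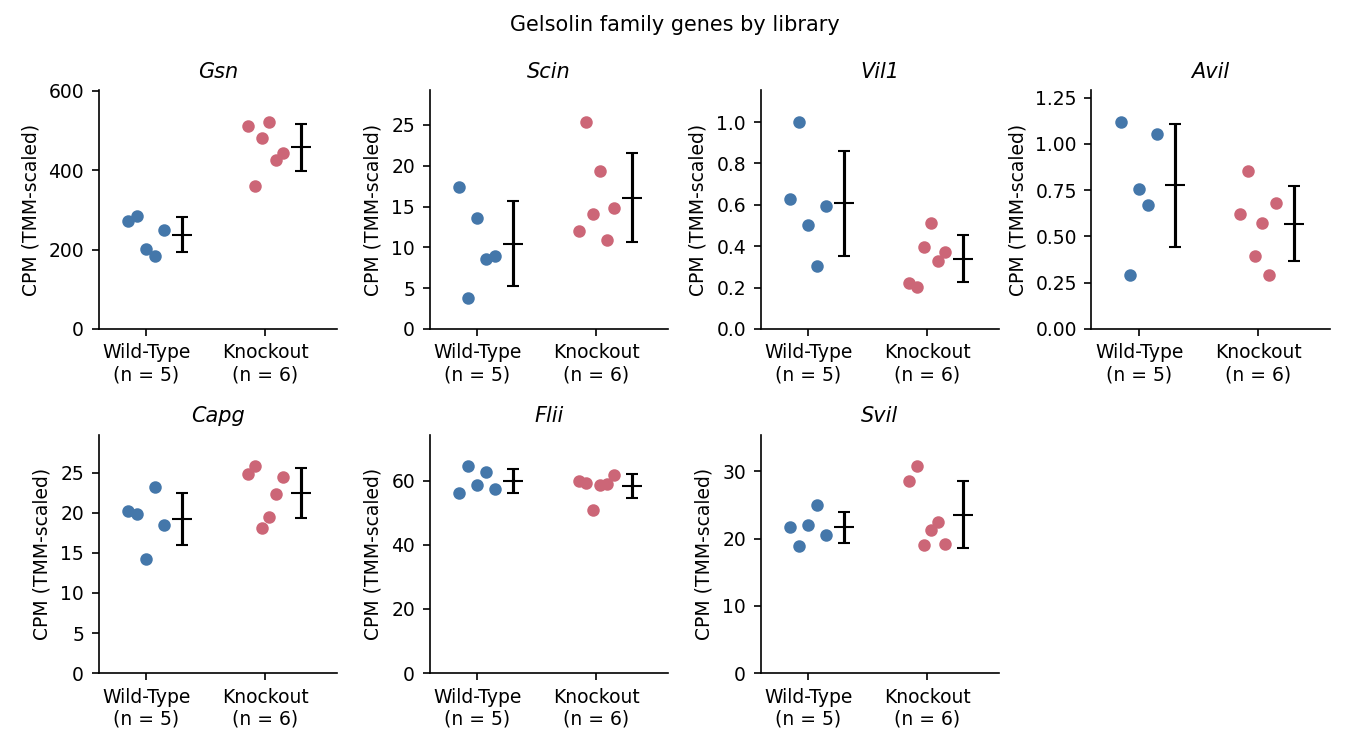
Level of each of the 7 gelsolin family genes in CPM, with 1 point per library by genotype and bars for mean ± SD (n = 6 Knockout, n = 5 Wild-Type), each panel on its own axis. Only Gsn shows no overlap between the genotypes (362 to 523 against 185 to 283 CPM).

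Per length, the family spanned a wide range of levels in the same order for its upper members in both genotypes. In Wild-Type, Gsn was at 35.9 ± 5.86 TPM, Capg at 8.02 ± 2.23 TPM and Flii at 5.28 ± 0.811 TPM, and each exceeded the next in all 5 libraries. Scin (1.83 ± 0.808 TPM) exceeded Svil (1.33 ± 0.267 TPM) in 4 of 5 libraries. Vil1 (0.137 ± 0.0868 TPM) and Avil (0.111 ± 0.0464 TPM) did not differ beyond their spread. In Knockout, Gsn stood at 81.6 ± 16.7 TPM, Capg at 11.1 ± 2.86 TPM, Flii at 6.05 ± 1.07 TPM, Scin at 3.37 ± 1.22 TPM and Svil at 1.74 ± 0.531 TPM, each above the next in all 6 libraries. Avil (0.0982 ± 0.0417 TPM) and Vil1 (0.0938 ± 0.0501 TPM) again lay within each other's spread.

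**Figure D5:**
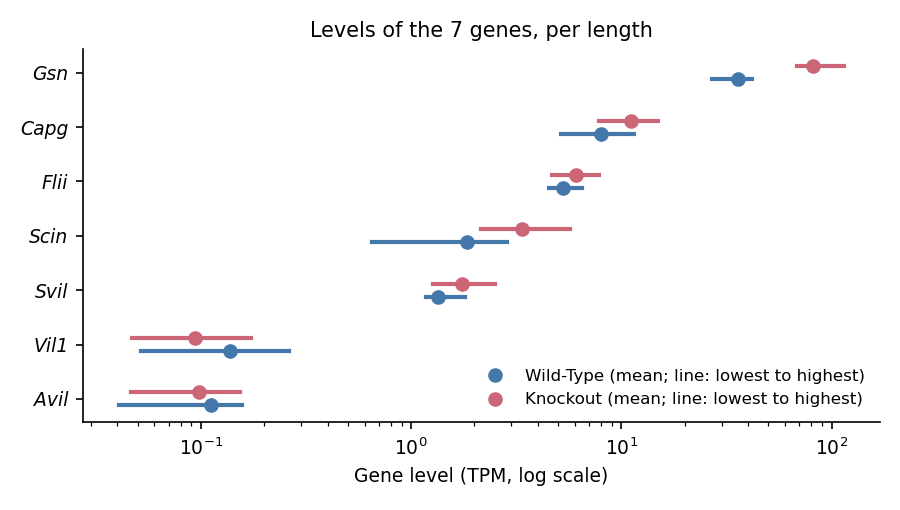
Level of the 7 genes in TPM on a log axis, with a point at each genotype mean and a line from its lowest to its highest library. Gsn lies above the other members in every library, and Vil1 and Avil lie lowest, at 0.0408 to 0.262 TPM.

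The genes whose levels were most like those of each member were sought over the 11 libraries after the genotype means were removed. They were taken as the highest of all tested genes, so a high r is fixed by the choice. For Gsn they were Trappc5 (r = 0.943), Slc7a10 (0.938), Pctp (0.916), Ppp1ca (0.878) and Kat8 (0.878). For Scin they were Tmcc3 (r = 0.921), Prpf18 (0.899) and Krt15 (0.898), the last a basal epithelial keratin. Vil1 was nearest to Dnajc4 (r = 0.946), Cenpx (0.928) and Tkfc (0.917), and Avil to Rabep1 (r = 0.942), Cpxm2 (0.934) and Kcnmb1 (0.930). Both had only 6 to 32 estimated reads per library, so their r values carry counting noise. Capg was nearest to Tspan33 (r = 0.965), Zc2hc1c (0.929) and Tax1bp3 (0.911). Flii was nearest to Robo4 (r = 0.933), Rfxank (0.894) and Slc36a1 (0.889), and Svil to Casp4 (r = 0.937), Zfp811 (0.906) and Ctnnb1 (0.895).

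The wider actin machinery around the family showed no called gene. Of 69 listed actins and actin regulators 63 were tested, of which 44 had positive and 19 negative log2 differences, with a median of 0.08 (0.04 without Knockout 2), beside 48.3% positive over all tested genes. edgeR called 0 at an adjusted p under 0.05, where 0.0550% of all genes were called. At an unadjusted p under 0.05 it found 9 of 63, near the 12.4% of all genes. DESeq2, which called 1.09% of all the genes it tested, called 0 of 66. All 5 tested actins were positive. Also positive were 11 of 13 nucleation and elongation factors (10 to 11 with 1 library left out), 8 of 12 bundling and crosslinking proteins (6 to 9) and 8 of 11 upstream regulators (7 to 9). Of the actins, Acta1 (skeletal muscle actin) reached 350.0 CPM in Knockout 1, the library with the most muscle marker RNA, against 0.157 to 67.3 CPM elsewhere. Its log2 difference was 2.33 ± 1.79 (SE), and 0.17 ± 1.51 without Knockout 1, where all 5 actins were still positive. Without Wild-Type 2, 4 of 5 were positive. Of the severing and depolymerizing proteins outside the family 5 of 7 were positive, but 3 of 7 without Wild-Type 3. The counts were 4 of 7 for end-capping proteins (6 of 8 without Wild-Type 5) and 3 of 7 for monomer-binding proteins (4 of 7 without Wild-Type 5).

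For all roles but the upstream regulators, the gene with the smallest p is named. Among severing proteins it was Dstn (destrin), with a log2 difference of 0.53 ± 0.20 (SE) and an edgeR adjusted p of 0.340. Among monomer binders it was Twf2 (twinfilin-2), at -0.50 ± 0.14, and among capping proteins Tmod3 (tropomodulin-3), at 0.32 ± 0.09, both with an edgeR adjusted p of 0.269. Cttn (cortactin, a branch stabilizer) was at 0.22 ± 0.07 and Fscn1 (fascin, a bundler) at -0.63 ± 0.19, with edgeR adjusted p-values of 0.283 and 0.274. Acta2 (smooth muscle actin) was at 0.21 ± 0.16, with an edgeR adjusted p of 0.613, and at 0.12 without Wild-Type 2 or 0.38 without Wild-Type 5. Vill, a villin-like relative outside the member list, was at -0.06 ± 0.27 (edgeR adjusted p = 0.948), with -0.34 without Knockout 5 and 0.09 without Knockout 6. Gc, the plasma protein that binds actin monomers freed by secreted gelsolin, had 0 reads in every library, below a floor of 3 counts.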

How the data were processed

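Bulk RNA from 11 whole-gland samples was quantified per transcript with Salmon 1.3.0 against GRCm38.p6, and DESeq2 1.28.1 is also named, per the submitters' processing notes. Library strand and index settings are not given in the sources used here. The deposited tables give estimated counts, TPM and effective lengths for 58204 transcripts. The authors' deposited gene table gives normalized signal values, used in an alternative only. Of the transcripts, 57452 matched GENCODE M21, and the other 752 held at most 0.265% of reads. Estimated counts were summed per gene, rounded and fitted with edgeR 4.0.16 in R 4.3.3 (TMM, filterByExpr, quasi-likelihood test, genotype only), which kept 12716 genes. Transcripts were fitted likewise, without modelling mapping uncertainty. The threshold was an adjusted p of 0.05. CPM used TMM library sizes. DESeq2 1.42.0 and limma 3.58.1 served alternatives. The edgeR script was tested on simulated data. The family and all lists were chosen with earlier results of these data known. Named genes were the 7 members, the 5 genes most like Gsn and 3 most like each other member (Pearson r of log2 CPM, prior count 2, predicted names passed over), and, in each actin role, called genes and the one with the smallest p. For upstream regulators that gene is not reported here. Protein sequences were not used here.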

Additional observations from a re-analysis of the deposited data

Results flagged for a closer look

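In 40 sets of values (member levels, Gsn forms and marker sums, each within a genotype), 5 sets held a value far from the rest of its group, where chance gives about 2. They came from 3 libraries, with 3 of the 5 values in Knockout 1. Flii was at 50.9 CPM in Knockout 3, below 58.5 to 61.7 CPM in the other Knockout libraries. Luminal epithelium markers summed to 955 CPM in Wild-Type 4, above 521 to 634 CPM in the other Wild-Type libraries. The remaining values were all in Knockout 1. B cell markers summed to 13.8 CPM there against 0.808 to 2.98 CPM in the other Knockout libraries, T cell markers to 7.62 against 1.57 to 2.94 CPM, and skeletal muscle markers to 1936 against 2.38 to 117 CPM.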

How the results depend on the processing

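The number of called genes was 146 with DESeq2, 0 with the replicate block and 0 to 28 with 1 library left out (28 without Knockout 2, 0 without Knockout 3 or Knockout 6), and that of called transcripts 156, 0 and 0 to 7. The count of called members was 0 with the block and 0 to 1 with 1 library left out, both for genes and for transcripts. The labels do not say whether shared replicate numbers pair the libraries. Same-numbered libraries correlated above 0.1 in 1 of 5 pairs, and 1 of 10 libraries correlated best with its own number. Such correlations cannot exclude shared litters or handling, so the replicate block was kept as an alternative. Under this block, which drops Knockout 6, the log2 difference was 0.97 for Gsn (edgeR adjusted p = 0.309), 1.13 for Gsn-201 (0.819) and -0.62 for Svil-204 (0.964), whose sign reversed. The share of secreted Gsn differed by 9.35 points over the 5 pairs and by 7.49 to 10.3 points with 1 library left out. With 1 library left out, Gsn ranged from 0.87 to 1.01 and Gsn-201 from 1.05 to 1.17, while signs reversed for Gsn-205 (-0.027 to 0.37), Svil-211 (-0.047 to 0.11) and Flii-201 (-0.057 to 0.00065). No call of another member changed in any of these fits. The causes were not tested. Vil1 and Avil rest on 6 to 32 reads per library.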
